A study of Mus musculus with 23 samples.

Results

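The genes described here are 9 that astrocytes use to take up and move potassium and water: Kcnj10, Kcnj16, Kcnk1, Kcnk2, Kcnk10, Slc12a2, Aqp4, Dtna and Dag1. They were chosen by symbol, as genes with known roles in this buffering and with earlier results of these data in view, and all 9 were found among the 24411 gene symbols of the count table. The study isolated cortical astrocytes from male mice at postnatal day 70, by magnetic sorting for the surface antigen ACSA-2, and sequenced poly(A) RNA from 1 library per mouse. All mice were Aldh7a1 Flox/Flox and all received 4-hydroxytamoxifen at postnatal days 3 and 4. ConAstro mice carried no Cre, and cKOAstro mice also carried Slc1a3-CreER/+, which drives recombination in cells that express the glutamate transporter gene Slc1a3. Mice stayed on control diet (4 ConAstro, 7 cKOAstro) or ate chow with sulforaphane (SFN), a compound that activates NRF2-dependent transcription, from postnatal day 21 (5 SFN-fed ConAstro, 7 SFN-fed cKOAstro). The question here was whether loss of ALDH7A1, a lysine-degrading aldehyde dehydrogenase, or the SFN diet moved the transcripts of the buffering genes.

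As background, active neurons release potassium, and astrocytes clear it. Inward rectifier channels hold the astrocyte membrane near the potassium equilibrium potential and let the ion enter where it is high. Tandem-pore domain channels carry a background potassium current, and the cotransporter NKCC1 brings sodium, potassium and chloride into the cell together. Water follows through aquaporin-4, which is held at the endfeet around blood vessels by a protein complex that includes dystrobrevin and dystroglycan.

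Libraries held 46890715 to 391701247 counts, so that even Kcnk10, the gene with the lowest level, was read at 3.28 CPM (counts per 1000000 counts of the library) or more in every library. Aldh7a1, the deleted gene, averaged 214 ± 5.89 CPM (SD, n = 4) in ConAstro and 59.2 ± 11.7 CPM (SD, n = 7) in cKOAstro (log2 fold change −1.86 ± 0.13 SE, adjusted p = 6.94e-05, edgeR quasi-likelihood test with Benjamini-Hochberg adjustment). Slc1a3, the gene that carries CreER, also fell, by 1.02 ± 0.13 on the log2 scale (SE, adjusted p = 0.0168). Aldh7a1 went against the genotype label in 2 libraries, with 55.7 CPM in the one labelled SFN-fed ConAstro replicate 1 and 222 CPM in the one labelled SFN-fed cKOAstro replicate 2. The main results on the buffering genes that rest on them are also given without them. Counts over lists of other genes and marker sums are given with them alone. The 12 astrocyte markers, which include Slc1a2, Glul and Gja1, summed to between 20770 and 32348 CPM per library, and the lowest of them, Gfap, was at 78.2 CPM or more in each. The 10 oligodendrocyte markers summed to between 23788 and 61051 CPM. Summed markers of other cells ran from 223 to 1299 CPM for neurons, 329 to 3569 for microglia, 1194 to 2318 for oligodendrocyte precursors, 187 to 831 for endothelium, 885 to 2485 for mural cells and 258 to 498 for fibroblasts and leptomeninges. Those of choroid plexus ran from 14.6 to 4428 CPM, of ependyma from 194 to 794 and of red blood cells from 0.501 to 18.5, and dissociation response genes from 827 to 1652. In bulk samples such as these, fewer cells of a type and less RNA per cell cannot be told apart.

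Per length of transcript, the 9 genes spanned a wide range, with Kcnk1, Kcnj10 and Aqp4 at the top and Kcnk10 far below the rest. RPKM values (CPM per kilobase of exon, with exon lengths from GENCODE M21) averaged 162 ± 25.6 (SD over 23 libraries) for Kcnk1, which encodes TWIK-1, and 160 ± 19.6 for Kcnj10, which encodes Kir4.1, the main inward rectifier of astrocytes. Their order was not stable, since Kcnk1 was above Kcnj10 in 9 of 23 libraries. Aqp4, the water channel gene, averaged 115 ± 20.8 RPKM and lay below Kcnj10 and above Dag1 in each of the 23 libraries. Dag1, which encodes dystroglycan, averaged 64.9 ± 8.52 RPKM, and Slc12a2, which encodes NKCC1, averaged 56.6 ± 8.84 RPKM. Dag1 was the higher of this pair in 19 of 23 libraries. Kcnj16, whose product Kir5.1 forms channels together with Kir4.1, averaged 34.7 ± 5.87 RPKM.

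Dtna, which encodes α-dystrobrevin, averaged 17.99 ± 2.30 RPKM, and Kcnk2, which encodes TREK-1, averaged 17.3 ± 2.13 RPKM. Dtna was above Kcnk2 in 15 of 23 libraries. The annotated exons of Dtna add up to 16930 bp over all its transcripts, and if the transcripts present are shorter its level per length would be higher than given. Kcnk10, which encodes TREK-2, averaged 0.639 ± 0.126 RPKM and was the lowest in all 23 libraries, with Kcnk2 on average 27.4-fold above it. The plot of RPKM by gene shows these steps.

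**Figure D1:**
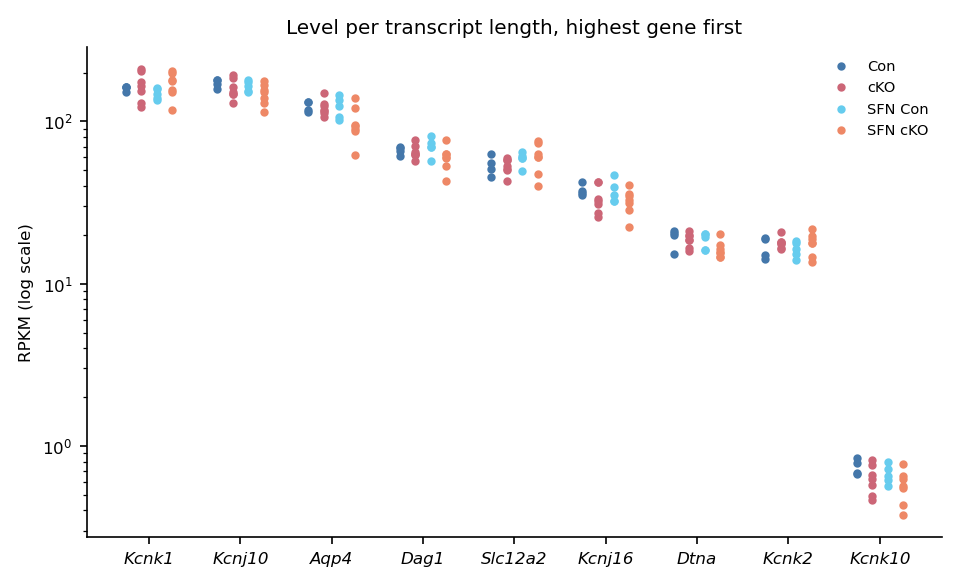
RPKM (log scale) of the 9 genes in 23 libraries, 1 point per library, coloured by group, with the gene of highest mean on the left. Kcnk1 and Kcnj10 overlap at the top (means 162 and 160 RPKM), and Kcnk10 lies apart at 0.639 RPKM.

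The genes sit on 6 chromosomes in the mm10 (GRCm38) assembly. Kcnj10 lies at chr1:172341210-172374085 and Kcnk2 at chr1:189207930-189402273. Kcnj16 is at chr11:110968033-111027968, Kcnk1 at chr8:125995170-126030685, Kcnk10 at chr12:98429437-98578310 and Dag1 at chr9:108204634-108263958. Aqp4 (chr18:15389496-15410982), Dtna (chr18:23415135-23659715) and Slc12a2 (chr18:57878678-57946821) share a chromosome with Aldh7a1, from which Slc12a2 lies 1.31 Mb away. Antisense transcripts are annotated across Kcnk1, Kcnk2, Kcnk10, Aqp4 and Dtna, and the sources used here do not say whether reads were counted by strand, so counts of these 5 genes could hold some antisense reads.

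On control diet, no difference between genotypes was detected in any of the 9 genes. None was called at an adjusted p under 0.05, where 0.023 percent of all 17406 genes tested were called, and none had an unadjusted p under 0.05, where 3.74 percent of all genes did. Fitted log2 fold changes of cKOAstro over ConAstro ran from −0.25 for Kcnk10 to 0.08 for Kcnk2, with 2 of 9 above 0 and a median of −0.03, against −0.01 over all genes tested. No gene had CPM ranges that separated the groups completely, a pattern found in 0.485 percent of 17302 genes. Every ConAstro library has a name that begins with 143 (its name series), and no cKOAstro library does. Genotype on control diet and name series thus cannot be told apart, also over numbered libraries alone.

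Kcnj10, in ConAstro replicates 1 to 4, was measured at 922, 980, 856 and 978 CPM. In cKOAstro it ran from 703 to 1047 CPM with a median of 815. The groups overlapped, since 4 of 7 cKOAstro libraries lay below the lowest ConAstro value and the 3 others ran from 886 to 1047 CPM. The fitted log2 fold change was −0.12 ± 0.10 (SE, 95% interval −0.34 to 0.10, adjusted p = 0.981, edgeR). Kcnj16 averaged 149 ± 12.03 CPM (SD, n = 4) in ConAstro and 132 ± 25.6 CPM (SD, n = 7) in cKOAstro, and its log2 fold change was −0.18 (95% interval −0.47 to 0.10). Both inward rectifiers thus had lower means in cKOAstro, with 95% intervals of the log2 fold change that include 0.

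Among the tandem-pore channels, Kcnk1 was the most even gene in ConAstro, at 340 to 366 CPM, and one of the least even in cKOAstro, at 275 to 468 CPM. The 2 highest cKOAstro values of Kcnk1, 468 and 459 CPM, came from replicates 2 and 4, the only cKOAstro libraries whose names begin with "Astro" rather than a number. What that name marks is not given. Over the numbered libraries alone the log2 fold change of Kcnk1 turned from 0.04 to −0.09, with neither value past the threshold. Kcnk2 averaged 83.0 ± 12.6 CPM (SD, n = 4) in ConAstro and 88.1 ± 7.01 CPM (SD, n = 7) in cKOAstro. Kcnk10 averaged 6.53 ± 0.70 and 5.51 ± 1.16 CPM in the same groups, and its interval was the widest of the 9 (−0.60 to 0.10).

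Slc12a2 and the water channel group lay close to no difference. Slc12a2 was read at 607, 689, 494 and 555 CPM in ConAstro replicates 1 to 4, and at 468 to 647 CPM, median 578, in cKOAstro. Aqp4 was read at 825, 713, 735 and 824 CPM in ConAstro replicates 1 to 4 and at 661 to 934 CPM, median 736, in cKOAstro. All 4 ConAstro values of Aqp4 and 3 of the 4 of Slc12a2 fell within the cKOAstro range. The log2 fold change of Slc12a2 was −0.02 (95% interval −0.24 to 0.20), and that of Aqp4 was −0.03 (−0.23 to 0.17). Dtna (−0.05, interval −0.27 to 0.17) and Dag1 (−0.02, interval −0.19 to 0.14) gave similar values. These intervals mark the size of change that 4 against 7 mice could have hidden.

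**Figure D2:**
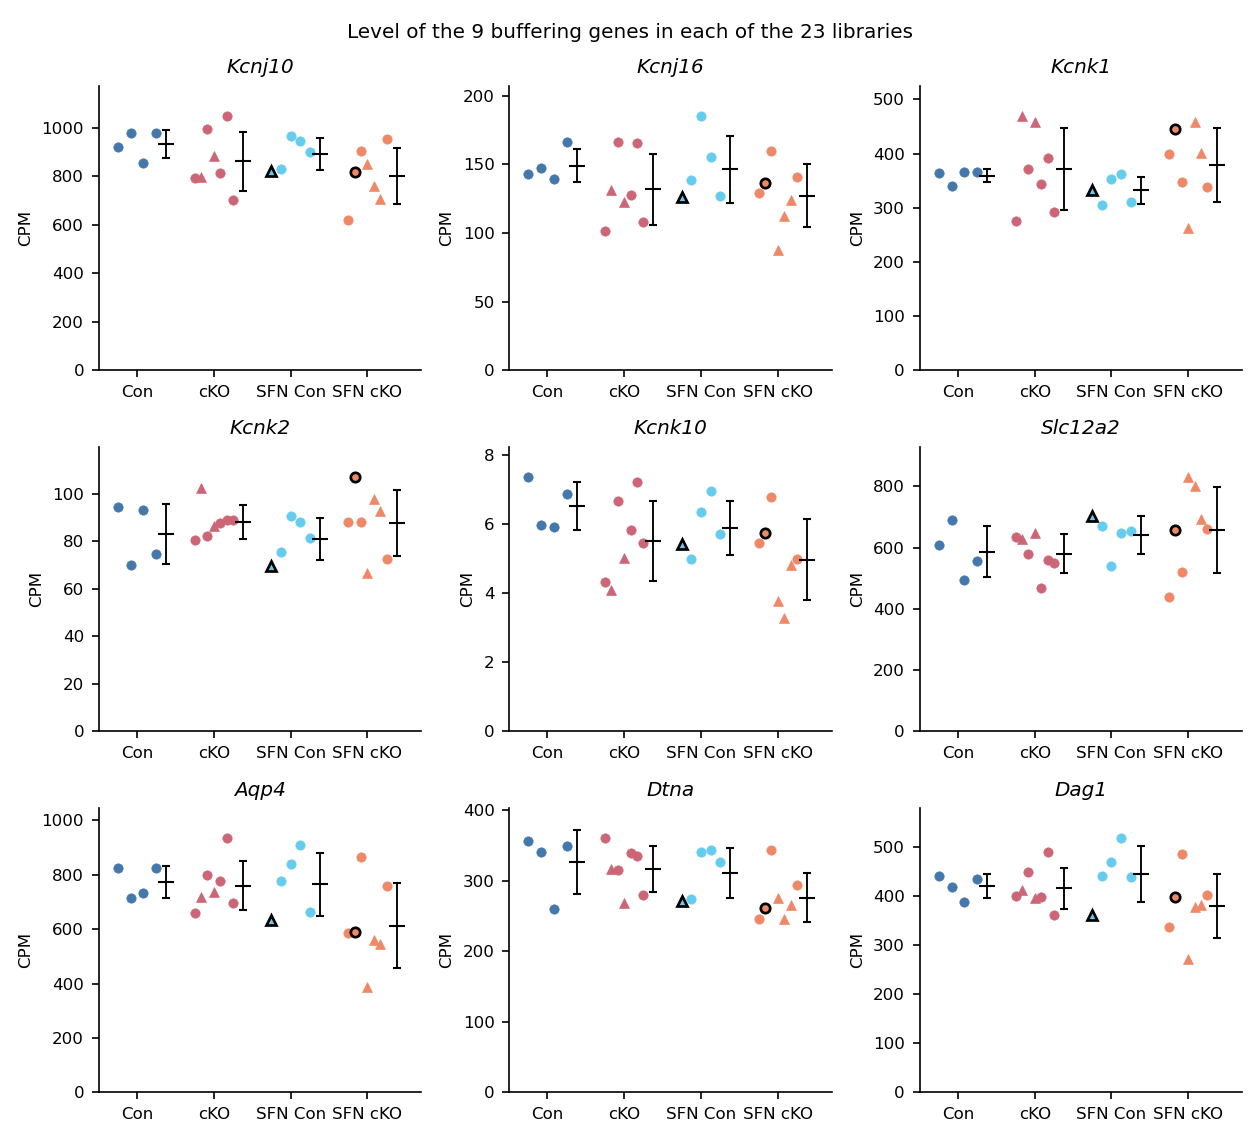
CPM of each gene in every library, by group (Con, ConAstro; cKO, cKOAstro; SFN, sulforaphane-fed). Circles are libraries with a numbered name, triangles those named "Astro", black outlines the 2 libraries whose Aldh7a1 goes against their label, and bars the mean ± SD. Aqp4 in SFN-fed cKOAstro spreads from 389 to 867 CPM, and groups overlap for every gene.

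The SFN diet did not detectably move the genes in ConAstro mice. None of the 9 was called in SFN-fed ConAstro against ConAstro (0.0 percent of all 16509 genes tested were), and none had an unadjusted p under 0.05 (6.54 percent of all genes did). Log2 fold changes ran from −0.16 for Kcnk10 to 0.13 for Slc12a2. Slc12a2 was read at 703, 669, 539, 648 and 652 CPM in SFN-fed ConAstro replicates 1 to 5, so that 4 of 5 values were above the ConAstro mean of 586 CPM and all but that of replicate 1 were within the ConAstro range (95% interval of the log2 fold change −0.11 to 0.36). Kcnk1 had the narrowest interval, −0.26 to 0.02 around −0.12. No gene had separate CPM ranges, against 1.97 percent of all genes. With the library labelled SFN-fed ConAstro replicate 1 left out, none was called, and the log2 fold changes of Kcnj16, Kcnk2 and Aqp4 moved from just below to just above 0 (0.01, 0.01 and 0.03). No SFN-fed ConAstro library is of name series 143, that of all ConAstro libraries. Diet and name series thus cannot be told apart in this comparison.

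In cKOAstro mice, SFN feeding went with lower values of Aqp4 and Dtna that did not pass the adjusted threshold. No member was called in SFN-fed cKOAstro against cKOAstro (0.0 percent of 16903 genes were), and 2 of 9 had an unadjusted p under 0.05, where 10.9 percent of all genes did. With 9 genes, a count of 2 is close to that background. It was 0 of 9 once the library against its label was left out (unadjusted p = 0.0658 for Aqp4 and 0.0741 for Dtna, edgeR) and 0 of 9 over numbered libraries alone, where 6.94 and 9.52 percent of all genes were under 0.05. With astrocyte marker scaling it was 1 of 9 (Aqp4, unadjusted p = 0.0277, edgeR), against 4.14 percent of all genes. Without SFN-fed cKOAstro replicate 3 it was 2 of 9, against 18.1 percent. No member was called in any of these fits. Aqp4 was read at 389 to 867 CPM, median 586, in SFN-fed cKOAstro, compared with 661 to 934 CPM, median 736, in cKOAstro. Of the 7 SFN-fed cKOAstro libraries, 5 lay below the lowest cKOAstro value, and replicates 3 and 7 lay within the cKOAstro range. The log2 fold change of Aqp4 was −0.31 ± 0.14 (SE, 95% interval −0.61 to −0.01, unadjusted p = 0.0420, adjusted p = 0.459, edgeR). That of Dtna was −0.19 ± 0.09 (interval −0.38 to −0.01, unadjusted p = 0.0416, adjusted p = 0.459), from 268 to 360 CPM, median 316, in cKOAstro and 245 to 344 CPM, median 266, in SFN-fed cKOAstro.

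The size of the Aqp4 difference depended on which libraries were read. It was −0.17 over numbered libraries alone and −0.23 without SFN-fed cKOAstro replicate 4, which held the lowest Aqp4 of all 23 libraries. It was −0.40 without SFN-fed cKOAstro replicate 3, which held the highest Aqp4 of its group, and −0.30 once the library against its label, replicate 2, was left out. The Dtna difference ran from −0.24 to −0.16 over the same fits that leave out 1 library. The adjusted p of either gene was at lowest 0.168 over these fits. Dag1, the other anchor, had a log2 fold change of −0.13 (interval −0.35 to 0.09). No numbered SFN-fed cKOAstro library shares a name series with a numbered cKOAstro library. Diet and name series thus cannot be told apart over numbered libraries in this comparison. Both groups hold libraries named "Astro". Among these, Aqp4 averaged 497 CPM in 3 SFN-fed cKOAstro and 728 CPM in 2 cKOAstro libraries (log2 ratio of means −0.55). SFN-fed cKOAstro replicate 4 is among the 3.

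The remaining genes differed less between SFN-fed cKOAstro and cKOAstro. Slc12a2 ran from 439 to 828.7 CPM, median 661, in SFN-fed cKOAstro, the widest spread of any group for this gene, and its log2 fold change was 0.18 (interval −0.10 to 0.47). Over numbered libraries alone it was 0.00. Kcnj10 averaged 802 ± 115 CPM (SD, n = 7) in SFN-fed cKOAstro and 863 ± 122 CPM (SD, n = 7) in cKOAstro. The 3 tandem-pore channels and Kcnj16 gave log2 fold changes between −0.15 and 0.03. No gene had separate CPM ranges, against 0.0925 percent of all genes.

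Between genotypes on the SFN diet, no member was called, and fitted values were below 0 for 6 of 9 genes: both inward rectifiers, Kcnk10 and all 3 genes of the water channel group. Of all 16672 genes tested, 0.0 percent were called, but 20.3 percent had an unadjusted p under 0.05, and none of the 9 members did. That contrast turned with the scaling: with libraries scaled to the 12 astrocyte markers, 3 of 9 members (Kcnj16, Aqp4 and Dag1, unadjusted p = 0.0330, 0.0188 and 0.0218, edgeR) and 10.9 percent of all genes were under 0.05, again with no call. Aqp4 had the largest difference, −0.32 ± 0.17 on the log2 scale (SE, 95% interval −0.69 to 0.05, adjusted p = 0.294, edgeR). Its values in SFN-fed ConAstro replicates 1 to 5 were 635, 779, 839, 910 and 663 CPM. Replicate 1 here is the library whose Aldh7a1 goes against its label, and it held the lowest Aqp4 of its group. Without both such libraries the log2 fold change was −0.37 (adjusted p = 0.378), and over numbered libraries alone it was −0.20 (unadjusted p = 0.225). In the name series 147, the only one of numbered libraries that both groups share, the single SFN-fed cKOAstro library, at 867 CPM, was above the SFN-fed ConAstro mean of 786 CPM (2 libraries).

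Dag1 averaged 446 ± 56.8 CPM (SD, n = 5) in SFN-fed ConAstro and 380 ± 65.4 CPM (SD, n = 7) in SFN-fed cKOAstro, a log2 fold change of −0.24 (interval −0.51 to 0.04). Vessel and leptomeningeal markers were lower in the same comparison, with 7 of 10 endothelial, 6 of 10 mural and 7 of 9 fibroblast and leptomeningeal markers under an unadjusted 0.05, all downward, and list medians of −0.74, −0.50 and −0.75 on the log2 scale. Of all genes, 20.3 percent were under 0.05 in that comparison. The part of vessel and leptomeningeal cells in the Aqp4 and Dag1 values was not tested. Without the libraries that go against their label the Dag1 difference was −0.31, with an unadjusted p of 0.0463 and an adjusted p of 0.329. Kcnk1 was the gene with the largest value above 0, 0.18 (interval −0.07 to 0.44). Leaving out SFN-fed cKOAstro replicate 3 took the number of genes called over the whole table from 0 to 701, and still no member was among them. The lowest adjusted p of a member in that fit was 0.105, for Dtna at −0.24, with Aqp4 at −0.42 and Dag1 at −0.30. No member had separate CPM ranges, against 1.19 percent of all genes.

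SFN-fed cKOAstro was also compared with ConAstro on control diet. No member was called (0.0 percent of 16753 genes were), and 2 of 9 had an unadjusted p under 0.05, against 8.67 percent of all genes. These were Kcnk10, at −0.41 ± 0.18 on the log2 scale (SE, unadjusted p = 0.0458, adjusted p = 0.557, edgeR), and Dtna, at −0.26 ± 0.12 (unadjusted p = 0.0482, adjusted p = 0.557). Kcnk10 was read at 7.36, 5.97, 5.92 and 6.87 CPM in ConAstro replicates 1 to 4 and at 3.28 to 6.78 CPM, median 4.98, in SFN-fed cKOAstro. The 2 lowest values, 3.28 and 3.78 CPM, were from libraries named "Astro", and over numbered libraries alone the log2 fold change was −0.21. Without the library against its label Kcnk10 was at −0.43 (unadjusted p = 0.0464) and Dtna at −0.23 (unadjusted p = 0.0835). The count of members under 0.05 thus moved to 1 of 9 (5.47 percent of all genes), and it was 0 of 9 over numbered libraries alone (4.51 percent). It was 3 of 9 with astrocyte marker scaling (Kcnj16, Kcnk10 and Aqp4, 4.09 percent) and 4 of 9 without SFN-fed cKOAstro replicate 3 (these 3 and Dtna, 16.3 percent), with no call in any of these fits. ConAstro libraries all share the name series 143, as do 3 of the SFN-fed cKOAstro libraries. Within that series the mean of Kcnk10 was 6.53 CPM in 4 ConAstro and 5.40 CPM in 3 SFN-fed cKOAstro libraries, and that of Dtna 326 and 267 CPM, with the library against its label among the 3. No member had separate CPM ranges, against 1.44 percent of all genes.

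The genotype difference did not detectably depend on diet for any member. The interaction called 0.0 percent of 17302 genes, with 7.32 percent at an unadjusted p under 0.05 and none of the 9 members among them. The largest interaction value was that of Aqp4, −0.29 ± 0.21 on the log2 scale (SE, 95% interval −0.73 to 0.14, adjusted p = 0.742, edgeR), and −0.34 (adjusted p = 0.676) without the 2 libraries against their label. The smallest was that of Kcnk10, 0.00 (interval −0.50 to 0.51), which was −0.06 without those 2 libraries. Intervals of this width hold effects as large as those fitted in the separate comparisons.

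**Figure D3:**
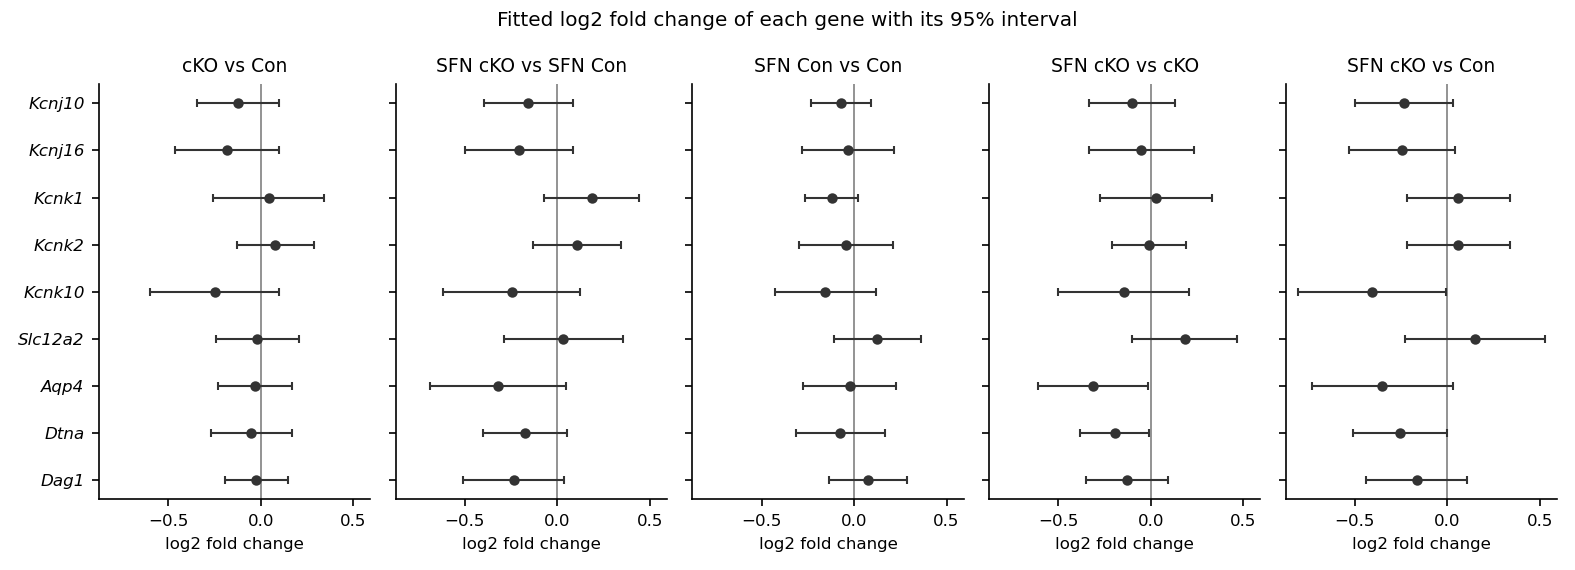
Fitted log2 fold change (horizontal axis) of the 9 genes in the 5 comparisons of 2 groups, each point with its 95% interval. The intervals of Aqp4 and Dtna in SFN cKO vs cKO, and those of Kcnk10 and Dtna in SFN cKO vs Con, end just below 0, and all others include 0.

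Ratios of 2 genes within a library do not depend on the scaling between libraries, and these also did not separate the groups. Kcnj16 over Kcnj10, the balance of the heteromer partners in RPKM, had geometric means of 0.219 in ConAstro, 0.208 in cKOAstro, 0.223 in SFN-fed ConAstro and 0.217 in SFN-fed cKOAstro. Dtna over Aqp4 lay between 0.150 and 0.169 in the 4 groups. Slc12a2 over Kcnj10 was 0.309 in ConAstro and 0.401 in SFN-fed cKOAstro, the pair with the lowest p of all 25 tests (exact 2-sided permutation test, p = 0.0758, adjusted p = 0.740 by Benjamini-Hochberg). Aqp4 over Kcnj10 was 0.767 in cKOAstro and 0.651 in SFN-fed cKOAstro (exact permutation p = 0.0862, adjusted p = 0.740). None of the 25 tests passed the threshold. Without the libraries against their label these p-values were 0.0810 for Slc12a2 over Kcnj10 and 0.132 for Aqp4 over Kcnj10 (exact permutation tests, adjusted p = 0.723 for both), and none passed.

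**Figure D4:**
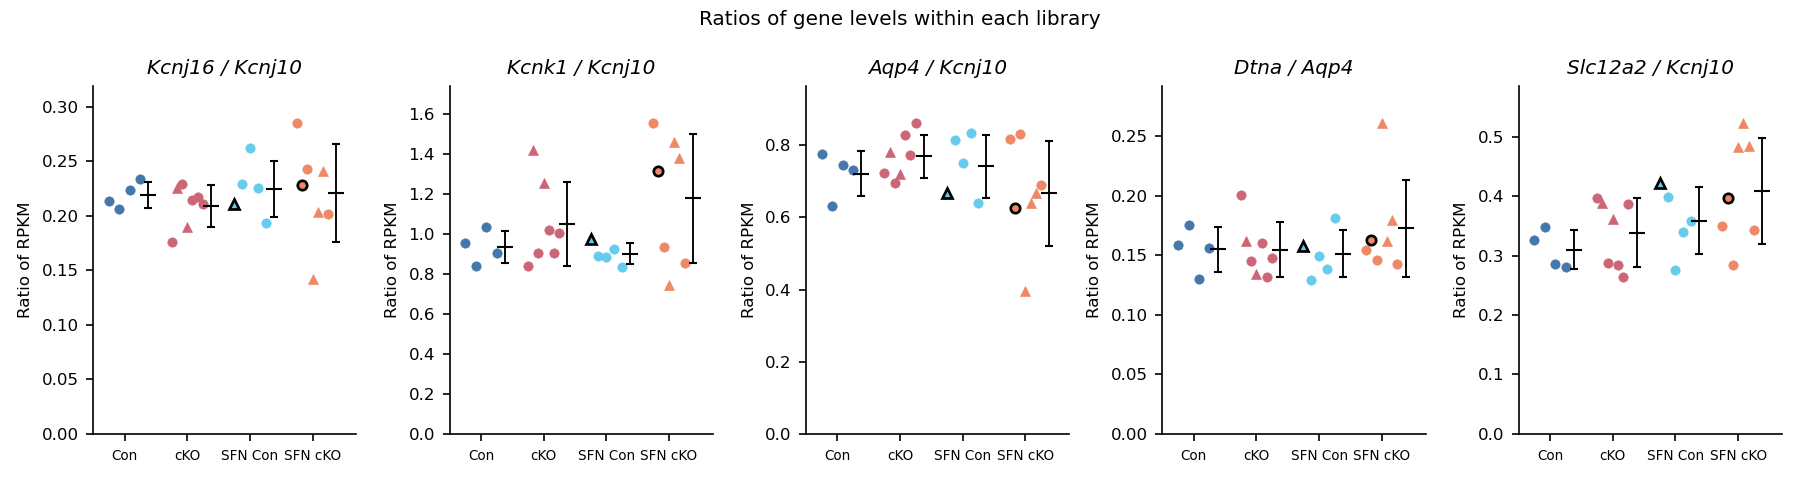
Ratio of RPKM of 2 genes within each library, by group, with the symbols of the plot of CPM and the mean ± SD. Groups overlap in all 5 ratios, and SFN cKO has the widest spread in each.

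One library stood apart in most of these genes. SFN-fed cKOAstro replicate 4 held the lowest values of all 23 libraries for Aqp4 (389 CPM), Dag1 (273), Kcnj16 (88.0), Kcnk1 (262) and Kcnk2 (66.8), and the highest for Slc12a2 (828.7). Its 10 oligodendrocyte markers summed to 61051 CPM, compared with 23788 to 38429 CPM in the other 22 libraries, and its astrocyte markers summed to 20770 CPM, the lowest of all. The part that this makeup plays in its values was not tested.

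Across all 23 libraries, Slc12a2, a gene that oligodendrocyte lineage cells also express, was higher where the oligodendrocyte markers were higher. On log2 scales Pearson's r was 0.74 (permutation p = 1e-05, the smallest that 100000 permutations can give; adjusted p = 9e-05 over 18 relations) and Spearman's rho was 0.81 (permutation p = 2e-05, adjusted p = 0.00036). The correlation was 0.73 without the 2 libraries farthest from the median marker sum, and 0.62 over the 17 numbered libraries. Aqp4 ran the other way, with r = −0.79 (permutation p = 9e-05, adjusted p = 0.000405) and rho = −0.61 (permutation p = 0.00239, adjusted p = 0.00717). Its r weakened to −0.57 without those 2 libraries and to −0.42 over the numbered libraries. The values of Kcnj16, Kcnk10, Dtna and Dag1 were also negative, from r = −0.63 to −0.42, but without those 2 libraries Kcnj16 was at −0.26 and Dag1 at −0.19. Those of Kcnj10, Kcnk1 and Kcnk2 lay between −0.25 and −0.12. Without those 2 libraries Kcnk1 turned to 0.39 and Kcnk2 to 0.19, while Kcnj10 was at −0.11. Over the numbered libraries the 3 genes were at 0.26, 0.13 and −0.01. Leaving out the libraries against their label gave r = 0.74 for Slc12a2 and −0.78 for Aqp4. These relations were examined after the data had been seen, for 2 of the 12 marker lists. The permutations, here and for the astrocyte markers, moved libraries freely across groups and name series. Their p-values thus do not set differences between groups or series apart.

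Against the astrocyte marker sum, 8 of the 9 genes had positive correlations and Slc12a2 did not (r = −0.21, permutation p = 0.349). The highest was Kcnj16, with r = 0.83 (permutation p = 1e-05, adjusted p = 9e-05) and rho = 0.75 (permutation p = 8e-05, adjusted p = 0.00072), which was 0.74 without the 2 farthest libraries and 0.87 over numbered libraries. It was 0.84 without the libraries against their label. Dag1 gave r = 0.77 (adjusted permutation p = 0.00018) and Aqp4 r = 0.66 (adjusted permutation p = 0.00133), while Kcnk2 gave 0.38 (adjusted permutation p = 0.0976). CPM values are shares of a library, so that a rise in one set of transcripts lowers the share of the rest.

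Scaling the libraries to the 12 astrocyte markers in place of the whole table left Aqp4 at −0.31 in SFN-fed cKOAstro against cKOAstro, and again no member was called. The summed oligodendrocyte markers had a median of 36077 CPM in SFN-fed cKOAstro and 30089 CPM in cKOAstro, with ranges of 26535 to 61051 and 24340 to 34446 CPM. How far this difference bears on Aqp4 and Dtna was not tested.

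**Figure D5:**
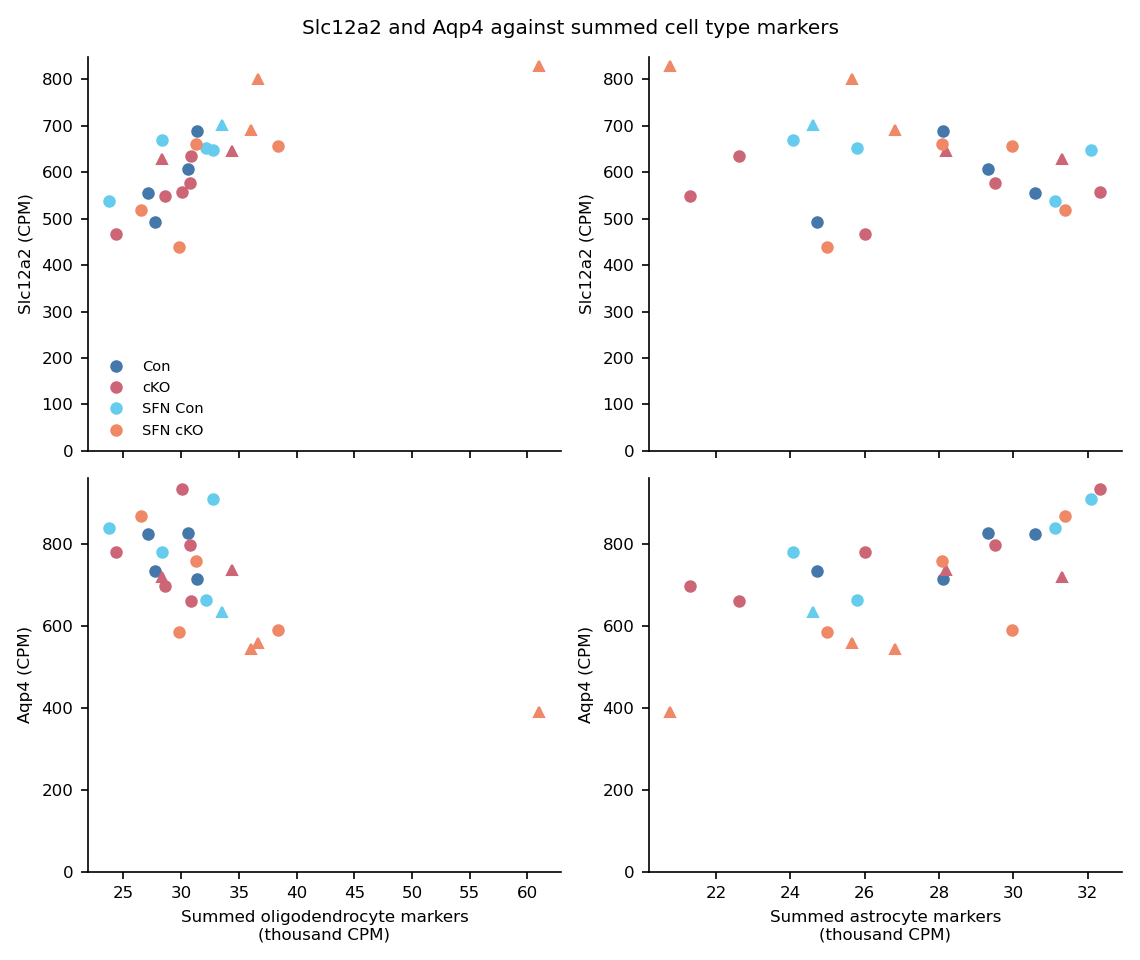
Slc12a2 and Aqp4 (CPM) against the summed CPM of the oligodendrocyte and astrocyte markers, 1 point per library, coloured by group, with triangles for libraries named "Astro". The library at 61051 CPM of oligodendrocyte markers has the highest Slc12a2 (828.7 CPM) and the lowest Aqp4 (389 CPM).

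Members also varied together from library to library. Over the 17 numbered libraries, r of log2 CPM was 0.81 between Aqp4 and its anchor Dag1, 0.79 between Kcnj10 and Dag1, 0.74 between Kcnj16 and Kcnk10 and 0.72 between Kcnj10 and Kcnj16. Kcnk1 and Kcnk2 gave 0.51 with each other, and Kcnk1 gave 0.02 with Aqp4 and 0.15 with Kcnj10. These are descriptions, since the libraries share depth, dissociation and cell makeup.

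The genes most like each member over those libraries, out of about 10416 with a mean of 10 CPM or more, were as follows. Slc12a2 was closest to Tmcc3 (r = 0.97) and App (0.96). Dag1 was closest to Xpr1 and Cadm2 (both 0.96), Kcnj10 to Acbd5 (0.94) and Clcn3 (0.93), and Kcnj16 to Luzp2 and Eps8 (both 0.92). Kcnk1 was closest to Scrg1 and Timp4 (both 0.94), Aqp4 to Ankrd13c (0.91) and Zfp521 (0.89), and Dtna to Pou2f1 (0.91) and Clasp1 (0.90). The lower ends of the scale were Kcnk10, with Acad11 (0.87) and Sc5d (0.86), and Kcnk2, with Mt2 (0.84) and Tpbg (0.83). These pairs were picked for the highest r among all candidates, so high values follow in part from the search. Over all 23 libraries r of the pairs ran from 0.65 (Kcnk2 with Tpbg) to 0.97 (Dag1 with Xpr1). Without the 2 libraries farthest from each member's median it ran from 0.69 (Kcnk2 with Mt2) to 0.95 (Slc12a2 with Tmcc3).

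Other genes of the same pathways were read in the same fits, and none of their lists held a called gene in any comparison. Of the other inward rectifiers, 11 of 13 were tested. None had an unadjusted p under 0.05 in SFN-fed cKOAstro against ConAstro, where 8.67 percent of all genes did. In every other comparison of 2 groups 1 did, or 9.09 percent. Of all genes, 3.74 percent did in cKOAstro against ConAstro and 6.54 percent in SFN-fed ConAstro against ConAstro. The share of all genes was 20.3 percent in SFN-fed cKOAstro against SFN-fed ConAstro and 10.9 percent against cKOAstro. In the interaction 2 of the other inward rectifiers were under 0.05 (18.2 against 7.32 percent). Kcnj8, the most abundant at a mean of 49.9 CPM and known from mural cells, gave −0.40 in SFN-fed cKOAstro against cKOAstro (unadjusted p = 0.0350), and Kcnj2, with 9.71 CPM, gave 0.15. Of the other tandem-pore channels, 8 of 11 were tested and none reached an unadjusted p under 0.05 in any comparison. Of all genes, 3.74 to 20.3 percent did, depending on the comparison. Kcnk13, with a mean of 64.0 CPM, averaged 60.0 CPM in cKOAstro and 67.1 CPM in SFN-fed cKOAstro, and Kcnk6 averaged 15.5 and 13.8 CPM.

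For the cation-chloride cotransporters and the WNK kinases that regulate them, 1 gene of 12 or 13 tested reached an unadjusted p under 0.05 in each of the 6 comparisons. That is 8.33 or 7.69 percent, where 3.74 to 20.3 percent of all genes did, depending on the comparison. Wnk1, with a mean of 617 CPM, and Wnk2, with 204 CPM, gave log2 fold changes of −0.10 and 0.43 in cKOAstro against ConAstro, neither past the unadjusted threshold. Of the 10 other aquaporins, 5 to 7 could be tested, and 1 had an unadjusted p under 0.05 in SFN-fed cKOAstro against each of cKOAstro and ConAstro. These were 16.7 and 14.3 percent of those tested, against 10.9 and 8.67 percent of all genes. Aqp11 differed by 0.07 or less on the log2 scale in every comparison. Aqp1, the aquaporin of the choroid plexus, averaged 40.8 ± 59.0 CPM (SD, n = 4) in ConAstro and 4.55 ± 4.41 CPM (SD, n = 7) in SFN-fed cKOAstro (edgeR, unadjusted p = 0.00628, adjusted p = 0.557). ConAstro replicate 3, at 128 CPM, carried the first mean, which was 11.8 CPM over the other 3 libraries. The choroid plexus markers, a list that includes Aqp1, summed to between 20.7 and 4428 CPM within ConAstro. They were at 170 CPM in ConAstro replicate 3. The 4428 CPM belonged to ConAstro replicate 2, where Aqp1 was at 28.1 CPM. The part of choroid plexus RNA in the Aqp1 value was not tested.

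The dystrophin complex and the ligands of dystroglycan had more low unadjusted p-values than the whole table in 4 of the 5 comparisons of 2 groups, with the highest count between genotypes on the SFN diet. In SFN-fed cKOAstro against SFN-fed ConAstro, 10 of 21 genes were under 0.05, 9 of them lower and 1 higher in SFN-fed cKOAstro, against 20.3 percent of all genes. The median log2 fold change of the list was −0.36, compared with 0.01 over all genes. Agrn, which encodes agrin, gave −0.15 (unadjusted p = 0.147). In cKOAstro against ConAstro, 2 of 21 (9.52 percent, against 3.74 percent of all genes) were under 0.05 and the median was −0.08. The count was 4 of 21 (19.0 percent) in SFN-fed cKOAstro against cKOAstro and again against ConAstro, where 10.9 and 8.67 percent of all genes were under 0.05. It was 1 of 21 (4.76 percent, against 6.54 percent) in SFN-fed ConAstro against ConAstro and 3 of 21 (14.3 percent, against 7.32 percent) for the interaction. The list was drawn up with earlier results of these libraries known, so its count is no independent evidence. Mural marker sums had a median of 1411 CPM in SFN-fed cKOAstro and 2179 CPM in SFN-fed ConAstro, endothelial sums 293 and 593 CPM, and fibroblast and leptomeningeal sums 295 and 448 CPM. Several genes of the complex are also expressed in vessel cells, and the part of those cells in the list was not tested.

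The enzymes that glycosylate dystroglycan, on which ligand binding depends, gave 4 of 13 genes under 0.05 in SFN-fed cKOAstro against SFN-fed ConAstro. That is 30.8 percent, against 20.3 percent of all genes. All 4 were higher in SFN-fed cKOAstro, and the list median was 0.04. B4gat1 gave 0.16 (unadjusted p = 0.0361) and Pomt2 gave 0.00. On control diet none of the 13 was under 0.05, where 3.74 percent of all genes were. Of the 14 endfoot and volume regulation genes, 2 (14.3 percent, against 3.74 percent of all genes) were under 0.05 in cKOAstro against ConAstro, both lower. In SFN-fed ConAstro against ConAstro 3 of 13 tested were (23.1 percent, against 6.54 percent), 2 higher and 1 lower. SFN-fed cKOAstro gave 1 of 14 (7.14 percent) against SFN-fed ConAstro, 1 of 14 against ConAstro and 0 of 14 against cKOAstro. Of all genes, 20.3, 8.67 and 10.9 percent were under 0.05 in these comparisons. Gpr37l1, at 1999 CPM, and Ttyh1, at 1790 CPM, the most abundant of them, lay within 0.12 of 0 on the log2 scale in every comparison.

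The diet acts on NRF2, so NRF2 targets were read beside the buffering genes. In SFN-fed ConAstro against ConAstro none of 18 was under an unadjusted 0.05 (median 0.04), where 6.54 percent of all genes were. In SFN-fed cKOAstro against cKOAstro 4 of 18 were (22.2 percent, against 10.9 percent of all genes), 3 higher and 1 lower, with a median of 0.08. Fth1, the ferritin heavy chain gene, gave 0.38 (unadjusted p = 0.0278) and Gstm1, a glutathione transferase gene, 0.10.

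Promoters were searched for the core of the antioxidant response element, the site that NRF2 binds, as TGACNNNGC on either strand. RefSeq windows (GRCm38.p6) of 250 bases before to 50 bases after a start were at hand for 6 of the 9 genes, 14 windows in all. One of the 14, 1 of 4 windows of Kcnj16, held the letters, as did 12.4 percent of all 32851 windows. It is shown because it is the only match among the genes that could be searched, on the plus strand of chr11:111019416-111019442, with the reverse complement of the core in capitals.
Kcnj16: gaatggggaGCTCTGTCAgaatgtgtc
Kcnj16 itself averaged 146 ± 24.5 CPM (SD, n = 5) in SFN-fed ConAstro and 149 ± 12.03 CPM (SD, n = 4) in ConAstro, a log2 fold change of −0.03 (95% interval −0.28 to 0.22).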

How the data were processed

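The authors deposited raw read counts per gene symbol for 23 libraries, made per the study's methods with FastQC and STAR (GeneCounts) on mm10. Versions, gene annotation and strand setting are not given in the sources used here. The study counts animals as n for RNA-seq. Groups came from sample titles.

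The deposited counts were tested with edgeR 4.0.16 (R 4.3.3; limma 3.58.1): filterByExpr (minimum count 10, minimum total 15), TMM, and the quasi-likelihood F-test on the 2 groups compared, or on all 4 groups for the interaction, with Benjamini-Hochberg adjustment over all genes tested and a threshold of 0.05. The study used DESeq2, which was an alternative here (1.42.0). CPM used TMM-scaled totals. All 9 members passed the filter in every comparison. Library pairs of a group differed beyond sampling noise (chi-square per degree of freedom 38.3 or more). The model was tested on simulated counts.

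Members, 8 pathway lists and 12 marker lists (228 of 231 symbols found) were chosen with earlier results of these data known. Named genes were the members, Aldh7a1 and Slc1a3, per pathway list any called gene or otherwise the 2 with the highest mean CPM, and per member the 2 most like genes. A gene that this rule names in the dystrophin list is not reported here. Replicate numbers did not pair libraries: same-numbered libraries' deviations correlated from −0.211 to 0.336 over 24 pairings. Alternatives were RLE scaling, no filter, 1 fit of all groups, a replicate block, numbered libraries alone, leaving out the 2 libraries against their label, astrocyte marker scaling and leaving out each library. Marker correlations and the Aqp1 mean without its highest library were added after seeing the data.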

Additional observations from a re-analysis of the deposited data

Results flagged for a closer look

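In 3 of 36 sets of values (9 genes in 4 groups), 1 library lay far from the rest by Dixon's ratio, and chance alone marks about 1 in 20 such sets. Kcnk1 in ConAstro replicate 2 was 340.4 CPM, below the other 3 libraries at 363.9 to 366.1 CPM, a group whose values otherwise lay within a few CPM. Kcnk2 in cKOAstro replicate 2 was 102.2 CPM, above the other 6 libraries at 80.44 to 88.88 CPM. Dtna in ConAstro replicate 3 was 259.3 CPM, below the other 3 libraries at 340.1 to 355.9 CPM. Without that library the log2 fold change of Dtna was −0.15 in cKOAstro against ConAstro and −0.34 in SFN-fed cKOAstro against ConAstro, with no call in either.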

How the results depend on the processing

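No member was called under any setting tried. Of 414 fold changes under other settings 384 kept their sign, and of 720 with 1 library left out 655 did, with lowest adjusted p-values of 0.155 and 0.105. The log2 fold changes that changed sign follow. Over numbered libraries alone they were Kcnk1 −0.095, Aqp4 0.0076, Dtna 0.0079 and Dag1 0.0062 (cKOAstro vs ConAstro), Slc12a2 −0.16 (SFN-fed cKOAstro vs SFN-fed ConAstro), Kcnj16 0.014, Kcnk2 0.0052 and Aqp4 0.033 (SFN-fed ConAstro vs ConAstro), Kcnj16 0.054 and Kcnk2 0.023 (SFN-fed cKOAstro vs cKOAstro), Slc12a2 −0.064 (SFN-fed cKOAstro vs ConAstro), and Kcnj16 0.039 and Slc12a2 −0.089 (interaction). Without the libraries against their label they were Kcnj16 0.014, Kcnk2 0.0052 and Aqp4 0.033 (SFN-fed ConAstro vs ConAstro), Kcnk1 −0.014 (SFN-fed cKOAstro vs cKOAstro), and Kcnk2 −0.074 and Kcnk10 −0.062 (interaction). With astrocyte marker scaling they were Kcnj16 0.019, Kcnk2 0.0034 and Aqp4 0.031 (SFN-fed ConAstro vs ConAstro), and Kcnk2 −0.025 and Kcnk10 −0.060 (interaction). With a replicate block they were Slc12a2 0.083 (cKOAstro vs ConAstro) and −0.022 (SFN-fed cKOAstro vs SFN-fed ConAstro), Kcnj16 0.0025 and Aqp4 0.012 (SFN-fed ConAstro vs ConAstro), Kcnk1 −0.022 (SFN-fed cKOAstro vs ConAstro) and Kcnk10 −0.017 (interaction). The block took the genes called in cKOAstro vs ConAstro from 4 to 1, and 2 of 23 libraries matched best with their own number.

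With 1 library left out, the ranges that crossed 0 were, in cKOAstro vs ConAstro, Kcnk1 −0.018 to 0.11, Slc12a2 −0.093 to 0.071, Aqp4 −0.081 to 0.0029 and Dag1 −0.062 to 0.0057. In SFN-fed cKOAstro vs SFN-fed ConAstro it was Slc12a2 −0.046 to 0.11. In SFN-fed ConAstro vs ConAstro they were Kcnj16 −0.13 to 0.023, Kcnk2 −0.12 to 0.022 and Aqp4 −0.092 to 0.033. In SFN-fed cKOAstro vs cKOAstro they were Kcnj16 −0.11 to 0.022, Kcnk1 −0.037 to 0.10 and Kcnk2 −0.064 to 0.045. In SFN-fed cKOAstro vs ConAstro it was Kcnk2 −0.0039 to 0.14. For the interaction they were Kcnj10 −0.088 to 0.020, Kcnj16 −0.090 to 0.069, Kcnk2 −0.055 to 0.11, Kcnk10 −0.090 to 0.080 and Slc12a2 −0.027 to 0.13.

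Over all genes, DESeq2 called 8, 367, 23, 11, 8 and 3 in cKOAstro vs ConAstro, SFN-fed cKOAstro vs SFN-fed ConAstro, SFN-fed ConAstro vs ConAstro, SFN-fed cKOAstro vs cKOAstro, SFN-fed cKOAstro vs ConAstro and the interaction, where edgeR called 4, 0, 0, 0, 0 and 0. One fit of all 4 groups called 0 in the first and 3 in the second. Without the libraries against their label, 2 genes were called in SFN-fed cKOAstro vs SFN-fed ConAstro and 2 in SFN-fed cKOAstro vs ConAstro. Leaving out 1 library gave 2 to 4 called genes in cKOAstro vs ConAstro (2 without ConAstro replicate 4), 0 to 701 in SFN-fed cKOAstro vs SFN-fed ConAstro (701 without SFN-fed cKOAstro replicate 3), 0 to 1 in SFN-fed ConAstro vs ConAstro (1 without ConAstro replicate 4) and 0 to 2 in SFN-fed cKOAstro vs ConAstro (2 without replicate 2 and 1 without replicate 7 of SFN-fed cKOAstro). The causes were not tested. None of the ratio tests passed under any setting, with an adjusted p of 0.316 at lowest.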
